A study of Mus musculus with 5 samples.

Results

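The levels of 38 genes of glycolysis and of the response to low oxygen were followed in single cells of the mouse growth plate. The genes were taken by name: 17 enzymes that carry glucose to lactate, 4 transporters of glucose and lactate, 2 enzymes that set the level of the activator of phosphofructokinase, 2 kinases that switch off pyruvate dehydrogenase, 5 genes of the oxygen-sensing pathway and 8 other genes known to respond to low oxygen. All 38 are among the 29818 genes in the count files. No measured value entered their choice by name, but the list was made with earlier results of these data known.

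The growth plate of a newborn mouse has no blood vessels, and its chondrocytes live at low oxygen. When oxygen falls, the prolyl hydroxylases that mark HIF-1α for destruction slow down, the von Hippel-Lindau protein (Vhl) no longer removes it, and HIF-1α switches on glucose transporters, glycolytic enzymes and lactate dehydrogenase. HIF-1α is known to be needed for the survival of chondrocytes in the centre of the cartilage, whereas the related HIF-2α, from Epas1, is best known from blood vessels. Chondrocytes pass from a resting to a proliferating zone, then stop dividing and enlarge as prehypertrophic and hypertrophic cells, which make collagen X.

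Cells came from femoral and tibial cartilage around the knee of 5 littermates, released with collagenase and trypsin, and 1 library was made per pup. By the study's text the knock-in was made on C57BL/6J. Its Cre line arose on B6SJLF1 and had 2 crosses to C57BL/6J. The GEO labels give the age as postnatal day 5, while the study's text gives an earlier day. Pups 1 and 2 were labelled WT. Pups 3 to 5 were labelled mutant: they carried 1 conditional knock-in copy of Trpv4 with the R594H change, switched on by Cre under the Col2a1 promoter and so in cells of the cartilage lineage. Trpv4 is a calcium channel of the cell membrane, and a change of 1 base cannot be read from gene counts, so the labels could not be checked on it. Cells with Xist made up 89.8% and 88.4% of pups 3 and 4 and at most 0.174% of the other pups, so sex differed within the mutant label. The study's supplement lists Xist for WT cells, whereas neither library labelled WT held it at more than this trace, and the groups are therefore written as labelled. Cells with Ddx3y, a gene of the Y chromosome, made up 66.3 to 70.1% of pups 1, 2 and 5 and at most 0.758% of pups 3 and 4. Sex was thus partly tied to the label. After filters, 82516 of 84382 cells were kept, with 13814 to 19133 per pup. The median cell held 9261 and 8521 UMIs (unique molecular identifiers, each standing for 1 captured RNA) in pups 1 and 2, and 6657, 6000 and 7016 in pups 3 to 5, so depth moved with the label. From 3 to 7 cell barcodes were shared by any pair of libraries.

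Cells were clustered on genes other than the 38, and the 39 clusters were named from marker genes. Genes of dissociation stress, of the cartilage matrix and of hemoglobin, counted below, were not kept out of the clustering. Their differences between classes are therefore no independent result. Clusters 10, 15 and 24 (6247 cells) took no name and are not among the classes compared. The classes used most here are resting (20584 cells), proliferating (9898), articular (14615) and perichondrial (6249). The single cluster of 1496 cells with prehypertrophic markers held the Col10a1-rich cells too, and both are called hypertrophic here. Its sub-cluster richest in Col10a1, described below, held 41 cells, so class values come mainly from cells lower in Col10a1. Over the whole cluster Col10a1 was at 5137 to 10907 CPM (the gene's UMIs scaled so that all UMIs of that class in that pup sum to 1e6), against 5.33 to 16.5 CPM in resting cells. Endothelial cells (525, from 38 to 172 per pup) served as a class outside cartilage. The classes came from other genes of the same cells, so each p-value below measures the spread between pups once the classes are given.

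The promoters are shown first because the factor that drives many of these genes, HIF-1 bound to its partner, recognises short DNA letters. RefSeq start sites (GRCm38.p6) were given for 34 of the 38 genes, and the 250 bases before each start were searched for ACGTG or GCGTG on either strand, where CACGTG counts once on each strand. The letters stood in 29 of 34 genes (85.3%), against 11226 of 27025 genes of the whole table (41.5%) and 6729 of 11065 genes tested between hypertrophic and resting cells (60.8%). Among single windows the share was 78.7% of 47 for the listed genes and 38.6% of 32851 for all. A match is only a match of letters. The 6 windows printed belong to the genes with 1 start site, and with bases after it that match a transcript of the gene, that had the 4 largest rises and the 2 largest falls from resting to hypertrophic cells. They are written 5′ to 3′ and end at the base before the start, with the matched letters in capitals.
Bnip3, chr7:138909507-138909756, minus strand: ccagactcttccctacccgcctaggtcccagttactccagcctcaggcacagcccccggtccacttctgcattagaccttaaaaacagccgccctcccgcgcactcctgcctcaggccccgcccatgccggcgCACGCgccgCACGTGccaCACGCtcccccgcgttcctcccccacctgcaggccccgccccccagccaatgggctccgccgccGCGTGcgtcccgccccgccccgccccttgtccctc
Pgk1, chrX:106186850-106187099, plus strand: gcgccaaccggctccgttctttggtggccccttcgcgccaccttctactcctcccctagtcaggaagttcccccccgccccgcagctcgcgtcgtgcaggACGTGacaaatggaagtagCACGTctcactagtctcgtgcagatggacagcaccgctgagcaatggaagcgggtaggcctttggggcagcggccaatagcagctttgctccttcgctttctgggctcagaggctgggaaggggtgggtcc
Slc16a3, chr11:120948817-120949066, plus strand: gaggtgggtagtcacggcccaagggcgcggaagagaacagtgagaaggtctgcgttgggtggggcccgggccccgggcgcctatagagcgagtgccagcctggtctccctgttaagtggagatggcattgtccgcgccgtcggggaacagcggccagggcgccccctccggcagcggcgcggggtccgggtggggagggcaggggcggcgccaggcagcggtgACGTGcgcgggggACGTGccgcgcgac
Car12, chr9:66713436-66713685, plus strand: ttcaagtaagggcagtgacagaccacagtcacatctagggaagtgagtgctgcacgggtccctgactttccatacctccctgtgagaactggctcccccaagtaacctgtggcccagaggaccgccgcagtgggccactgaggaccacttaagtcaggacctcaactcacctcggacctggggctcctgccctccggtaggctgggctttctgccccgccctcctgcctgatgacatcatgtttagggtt
Ppp1r3c, chr19:36736605-36736854, minus strand: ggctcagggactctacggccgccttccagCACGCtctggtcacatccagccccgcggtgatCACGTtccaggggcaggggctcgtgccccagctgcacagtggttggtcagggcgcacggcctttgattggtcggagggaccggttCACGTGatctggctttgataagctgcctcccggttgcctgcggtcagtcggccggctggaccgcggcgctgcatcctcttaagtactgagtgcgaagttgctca
Eno2, chr6:124769674-124769923, minus strand: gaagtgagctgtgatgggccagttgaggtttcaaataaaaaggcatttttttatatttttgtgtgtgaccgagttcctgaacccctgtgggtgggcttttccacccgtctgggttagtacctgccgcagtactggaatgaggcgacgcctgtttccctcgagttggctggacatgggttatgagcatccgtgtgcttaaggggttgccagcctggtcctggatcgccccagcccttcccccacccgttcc
Bnip3 had 5 matches, Ppp1r3c 4, and Pgk1 and Slc16a3 had 2 each. The Slc16a3 matches began 27 and 14 bases before the start, and those of Pgk1 150 and 131 bases before it. Car12, which had the largest rise, and Eno2, which had the largest fall, had 0 in this window. Of the genes with a window, 18 of 21 that were higher in hypertrophic cells, 4 of 6 that were lower and 7 of 7 that passed in neither direction held the letters. These counts are small, and no difference between them was tested.

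Seen as a whole, the 38 genes took up a larger part of the RNA in proliferating and hypertrophic chondrocytes than in any other chondrocyte class. Over the 5 pups they made up 0.421 to 0.513% of the UMIs of resting cells, 0.951 to 1.02% of proliferating cells and 1.01 to 1.09% of hypertrophic cells. Articular chondrocytes, the cells of the joint surface, were at 0.388 to 0.434%. Perichondrial cells, the sheath around the cartilage, were at 0.203 to 0.251%, and endothelial cells at 0.355 to 0.415%. The ranges of proliferating and hypertrophic cells lay above those of resting and articular cells in every pup. Proliferating and hypertrophic cells were also the deepest, with medians of 15708 and 27544 UMIs per cell against 7318 in resting cells, and the part of depth in the difference was not tested. Immediate early and heat shock genes, which the release of cells by enzyme can raise, made up 1.85% of resting, 2.19% of proliferating and 1.45% of hypertrophic UMIs on average.

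**Figure D1:**
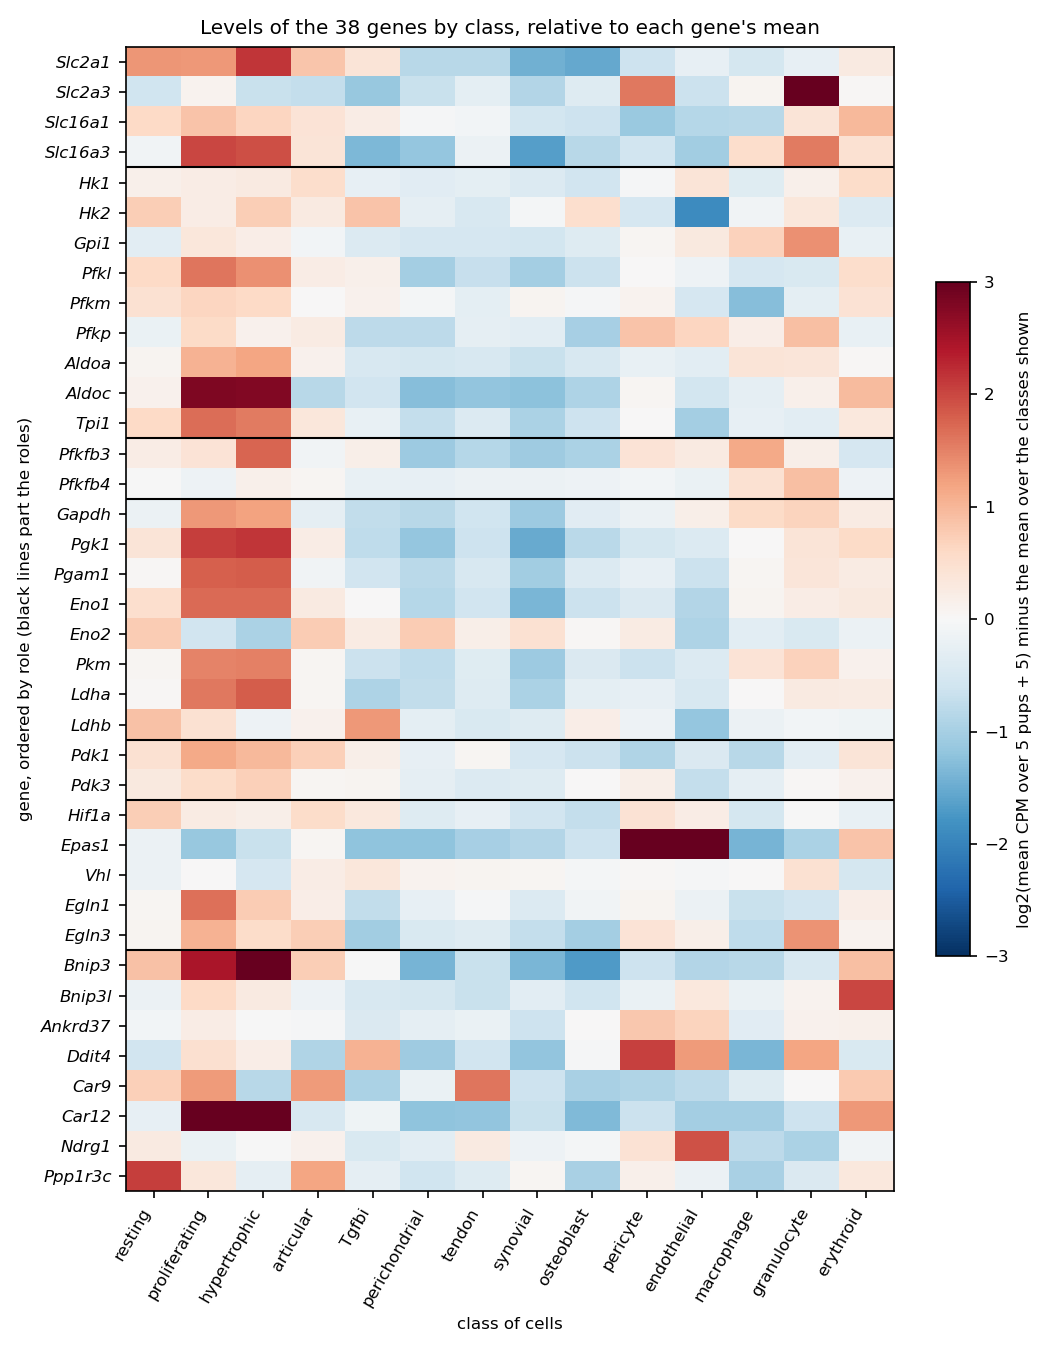
Levels of the 38 genes (rows, grouped by role) in 14 classes of cells (columns), as log2 of the mean CPM over 5 pups plus 5, minus the mean of that gene over the classes shown. Dark red across the proliferating and hypertrophic columns marks the lower glycolytic enzymes, Bnip3 and Car12, while Epas1 is dark red in pericytes and endothelial cells. Scales run from −3 to 3, and values beyond are drawn at the end of the scale.

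By mean level, hypertrophic cells were highest of the 14 classes for 10 genes and proliferating cells for 9. Of these, only Bnip3, Car12, Ldha and Slc2a1 in hypertrophic and Egln1 in proliferating cells did not overlap the next class over pups. Granulocytes were highest for 6 genes, resting and erythroid cells for 3 each, and endothelial cells, pericytes and Tgfbi-expressing chondrocytes for 2 each. Car9 was highest in tendon cells, where it ranged from 22.6 to 110 CPM and overlapped articular chondrocytes. Slc2a3, the high-affinity glucose transporter, reached 99.7 to 411 CPM in granulocytes, while pericytes reached 26.4 to 45.3 CPM and mast cells, a small class that is not plotted, 0 to 56.6 CPM. Over all pups it was at 444 CPM in granulocyte cluster 35 (252 cells) and 44.8 CPM in granulocyte cluster 34 (378 cells). Cluster 34 scored higher on lymphoid than on granulocyte markers, with Ighm, Vpreb3 and Cd79a beside Mpo and Elane among its leading genes. The granulocyte class is therefore mixed. Bnip3l, a mitophagy receptor needed for the clearing of mitochondria in red cells, stood at 488 to 834 CPM in erythroid cells and at most at 281 CPM in proliferating chondrocytes. Free RNA limits what small classes show: genes of the cartilage matrix made up 3.59 to 9.03% of erythroid UMIs and 0.721 to 2.76% of endothelial UMIs, against 16.1 to 18.2% in resting cells. How reads that fit several places were counted is not given, and many glycolytic enzymes have processed copies elsewhere in the genome, so their levels carry that uncertainty.

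From resting to proliferating cells, 25 of the 38 genes rose, 8 fell and 5 did not pass, at an adjusted p under 0.05 in edgeR with the pup as a block. Over all 15850 genes tested, 37.4% were called higher and 35.2% lower. Scaling by total UMIs alone moved the median of all genes from 0.013 to 0.139 and the higher share of all called genes from 51.5% to 61.5%, and 27 of the 38 genes were then higher and 8 lower. The median log2 fold change was 0.642 for the 38 genes and 0.013 for all genes. From resting to hypertrophic cells, 22 rose and 8 fell, where 35.4% and 36.7% of 14710 genes were called, with medians of 0.536 and −0.029. The rising share of the list thus stood above the background and the falling share below it in both comparisons.

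The enzymes of the lower, energy-yielding arm of glycolysis rose together. Gapdh, Pgk1, Pgam1, Eno1, Pkm and Ldha, which run from glyceraldehyde phosphate to lactate, rose in both comparisons. Pgk1, which makes the first ATP of the pathway, was at 555, 431, 394, 403 and 339 CPM in the resting cells of pups 1 to 5. It was at 1425, 1505, 1288, 1340 and 1276 CPM in proliferating and at 1556, 1415, 1345, 1439 and 1434 CPM in hypertrophic cells. Neither set of values overlapped the resting values, while the proliferating and hypertrophic values overlapped each other. The log2 fold change was 1.58 ± 0.07 (SE, n = 5 pups, adjusted p = 1.3e-07) to proliferating and 1.76 ± 0.07 (adjusted p = 1.1e-09) to hypertrophic cells. Ldha, the lactate dehydrogenase subunit that favours lactate, was at 283, 229, 239, 231 and 194 CPM in resting, 692, 716, 718, 727 and 654 CPM in proliferating and 893, 804, 809, 815 and 807 CPM in hypertrophic cells. Here the 3 classes did not overlap, and the log2 rise was 1.46 ± 0.05 and 1.81 ± 0.05. Pgam1, phosphoglycerate mutase, rose by 1.67 ± 0.06 and 1.79 ± 0.06.

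The minor isoforms went the other way. Eno2, the neuronal enolase, was at 16.8 to 22.4 CPM in resting cells, 3.83 to 5.93 CPM in proliferating cells and 1.16 to 3.29 CPM in hypertrophic cells, with log2 fold changes of −2.20 ± 0.08 and −2.94 ± 0.15. Ldhb, the subunit that favours pyruvate, was at 28, 34.8, 28.1, 25.7 and 26 CPM in resting and 8.14, 13.2, 11.3, 15.5 and 9.09 CPM in hypertrophic cells. It fell by 0.66 on the log2 scale to proliferating and by 1.33 to hypertrophic cells. Resting and hypertrophic values did not overlap for either gene. In the same cells, then, Ldha rose while Ldhb fell.

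The upper arm, from hexokinase to the triose phosphates, was mixed. Of its 9 genes, 6 rose and Hk2 fell from resting to proliferating cells, and 5 rose from resting to hypertrophic cells. Aldoc, an aldolase best known from brain, had the largest rise of the arm, from 14.7, 16.3, 6.83, 5.81 and 10.9 CPM in resting to 85.8, 112, 82.9, 87.5 and 108 CPM in proliferating cells. Its log2 rise was 3.04 ± 0.22 to proliferating and 3.14 ± 0.31 to hypertrophic cells. Hk2, the inducible hexokinase that traps glucose in the cell, was at 103 to 141 CPM in resting and 76 to 98.3 CPM in proliferating cells, and fell by 0.67 ± 0.08 on the log2 scale (adjusted p = 0.00015). In hypertrophic cells Hk2 was at 100 to 153 CPM, and the fold change from resting did not pass (−0.03 ± 0.11, adjusted p = 0.81). Hk1 and Pfkm passed in neither comparison. Pfkfb3, which makes the activator of phosphofructokinase, was at 32.1 to 52.9 CPM in resting, 41.8 to 53.5 CPM in proliferating and 111 to 147 CPM in hypertrophic cells. It rose by 1.62 ± 0.12 from resting to hypertrophic cells and by 1.54 ± 0.06 from proliferating to hypertrophic cells, and its change from resting to proliferating cells did not pass (0.08 ± 0.13, adjusted p = 0.63).

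The 4 transporters followed different courses. Slc16a3, the lactate exporter of glycolytic cells, was at 48.2, 22.8, 26.2, 36.8 and 22 CPM in resting, 168, 133, 145, 172 and 137 CPM in proliferating and 198, 112, 123, 159 and 128 CPM in hypertrophic cells. The rise came with the proliferating class, at 2.20 ± 0.12 on the log2 scale, and the later step did not pass (0.03 ± 0.06, adjusted p = 0.69). Slc2a1, the basal glucose transporter, was at 209, 208, 202, 205 and 246 CPM in resting and 172, 201, 264, 223 and 197 CPM in proliferating cells, which overlapped (−0.16 ± 0.11, adjusted p = 0.26). In hypertrophic cells it was at 296, 396, 514, 355 and 357 CPM, above both other classes in every pup, with a log2 rise of 0.98 ± 0.05 over proliferating cells. Slc2a3 was at 2.90 to 4.80 CPM in resting, 6.71 to 12.4 CPM in proliferating and 2.42 to 4.09 CPM in hypertrophic cells, and rose by 1.11 ± 0.14 to proliferating cells. Slc16a1, a carrier of lactate and pyruvate, was at 124 to 167, 167 to 199 and 141 to 169 CPM, a log2 rise of 0.15 ± 0.05 to proliferating cells whose call was lost (adjusted p = 0.063) when the resting cluster richest in these genes was left out. Pdk1 and Pdk3, which switch off pyruvate dehydrogenase, rose by 0.62 ± 0.06 and 0.16 ± 0.04 to proliferating cells.

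**Figure D2:**
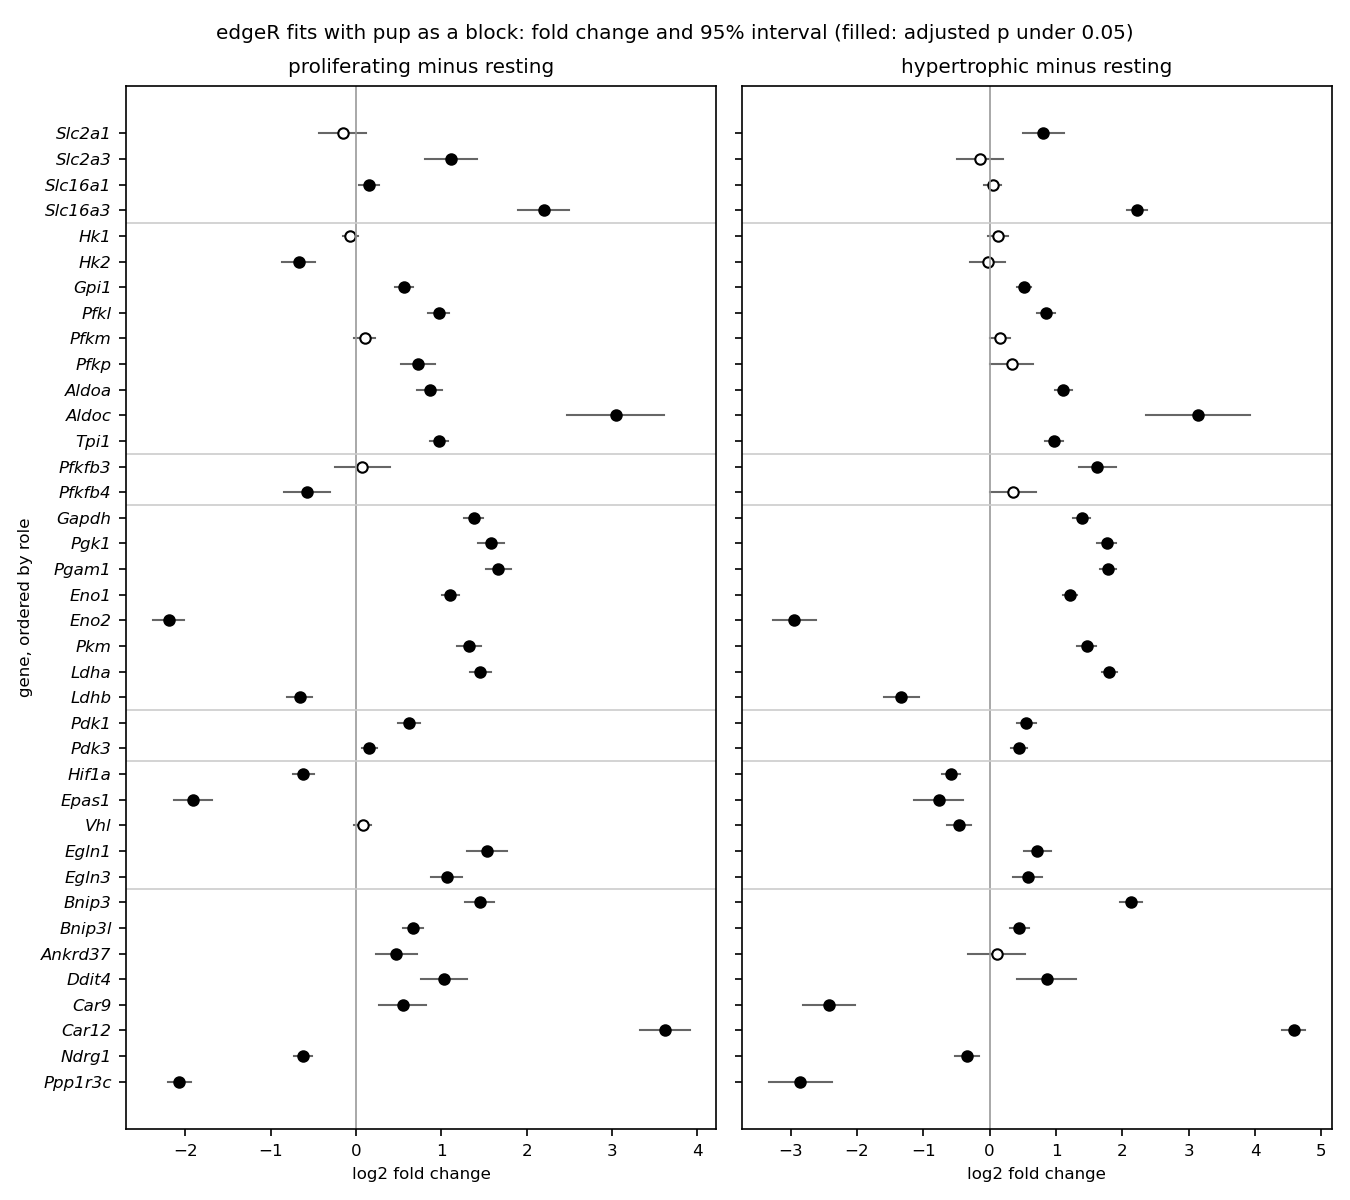
Log2 fold changes of the 38 genes (rows, grouped by role) from resting to proliferating cells (left) and from resting to hypertrophic cells (right), in edgeR fits with the pup as a block. Points are estimates, lines 95% intervals, and filled points passed at an adjusted p under 0.05. Most lower glycolytic enzymes lie right of 0 in both panels, whereas Eno2, Ldhb, Hif1a, Epas1, Ndrg1 and Ppp1r3c lie left of it, and Car9 changes side between the panels.

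Of the oxygen-sensing genes, the prolyl hydroxylases rose and both HIF-α genes fell. Hif1a was at 420, 427, 406, 431 and 532 CPM in resting, 321, 268, 294, 348 and 344 CPM in proliferating and 321, 258, 255, 337 and 331 CPM in hypertrophic cells. It fell by 0.62 ± 0.06 and 0.58 ± 0.06 on the log2 scale, and resting values did not overlap either class. HIF-1α is controlled mainly as a protein, which was not measured. Epas1 was at 9.21 to 12.7 CPM in resting, 2.46 to 4.26 CPM in proliferating and 3.05 to 9.08 CPM in hypertrophic cells, a log2 fold change of −1.91 ± 0.10 to proliferating cells. Egln1, the main prolyl hydroxylase and itself a target of HIF, was at 58.7 to 89.9 CPM in resting, 204 to 246 CPM in proliferating and 93.4 to 131 CPM in hypertrophic cells. It rose by 1.53 ± 0.10 to proliferating cells and fell by 0.81 ± 0.06 from there to hypertrophic cells, so its peak was in the proliferating class. Egln3 followed the same order, at 12.8 to 17.6, 30.6 to 36.4 and 17 to 27.5 CPM. Vhl was at 22.5 to 24.3 CPM in resting and 14.4 to 20.2 CPM in hypertrophic cells and fell by 0.46 ± 0.08 between them.

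Among the other targets of low oxygen, Car12 and Bnip3 rose most. Car12, a carbonic anhydrase of the cell surface that handles the acid of glycolysis, was at 21.2, 14.6, 15.7, 24.9 and 21.4 CPM in resting, 232, 248, 262, 320 and 242 CPM in proliferating and 573, 400, 364, 573 and 450 CPM in hypertrophic cells. The 3 classes did not overlap, and the log2 rise from resting was 3.62 ± 0.12 (adjusted p = 3.7e-07) and 4.58 ± 0.08 (adjusted p = 8.7e-12). Bnip3, a receptor that marks mitochondria for removal, was at 252 to 328, 750 to 951 and 1104 to 1404 CPM, again without overlap, and rose by 1.45 ± 0.07 and 2.13 ± 0.07. Car9, the related enzyme that is widely used as a marker of hypoxia, went the other way in hypertrophic cells. It was at 32.3, 18.3, 21, 27.5 and 19.5 CPM in resting, 33.8 to 41.8 CPM in proliferating and 3.92, 2.96, 3.13, 6.95 and 7.07 CPM in hypertrophic cells. Its log2 fold change was 0.55 ± 0.12 (adjusted p = 0.0039) to proliferating cells and −2.97 ± 0.17 (adjusted p = 1e-07) from there to hypertrophic cells. The 2 carbonic anhydrases thus moved in opposite directions at the last step. Ppp1r3c, which directs the making of glycogen, was at 64.8, 77.5, 89.6, 74.6 and 83.6 CPM in resting, 18.6 to 21.9 CPM in proliferating and 6.83, 12.1, 7.43, 17.6 and 12.9 CPM in hypertrophic cells. It was highest in resting cells of all classes, and the next class, articular chondrocytes, reached at most 45.1 CPM. Ndrg1, a stress-responsive gene, was at 80.7 to 130 CPM in resting and 57.3 to 94.8 CPM in proliferating cells and fell by 0.62 ± 0.05.

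**Figure D3:**
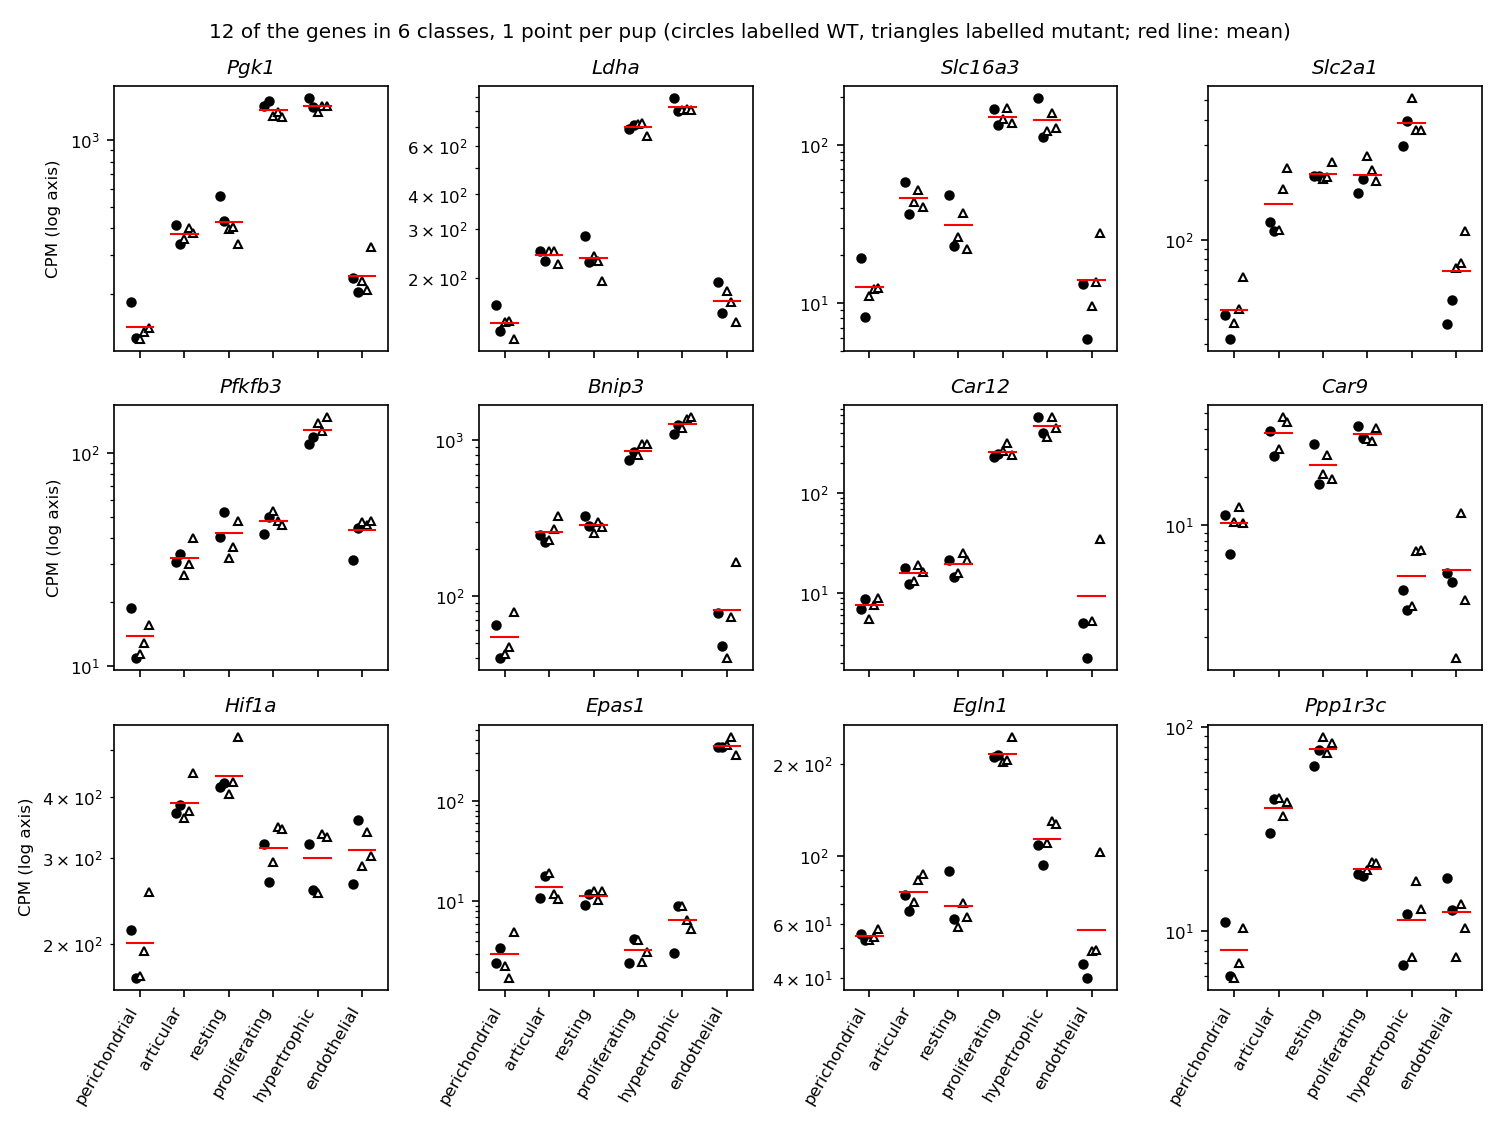
CPM (log axis) of 12 of the genes in 6 classes, 1 point per pup, with circles for pups labelled WT, triangles for pups labelled mutant and a red line at the mean. Bnip3 and Car12 climb from resting to hypertrophic cells with no overlap, Car9 and Ppp1r3c are low in hypertrophic cells, and Epas1 stands at 282 to 432 CPM in endothelial cells. Car12 in the endothelial cells of pup 4 was 0 and is not drawn on the log axis.

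The step from proliferating to hypertrophic cells went both ways, in the list as in all genes. In it 16 genes rose and 11 fell, where 30.0% and 31.6% of 14620 genes were called higher and lower, so the falling share was near that of all genes. Pfkfb3, Epas1 (1.11 ± 0.16), Slc2a1, Car12 (0.96 ± 0.11), Pfkfb4 (0.95 ± 0.19), Bnip3 (0.69 ± 0.04), Hk2 (0.64 ± 0.05) and Ldha (0.36 ± 0.04) had the largest log2 rises. Car9, Slc2a3 (−1.25 ± 0.14), Egln1, Ppp1r3c (−0.76 ± 0.17), Eno2 (−0.76 ± 0.19), Ldhb (−0.67 ± 0.16), Vhl (−0.52 ± 0.07) and Egln3 (−0.48 ± 0.08) had the largest falls. The falls of Ppp1r3c and Eno2 depended on how the cells were classed: at a coarser clustering their log2 fold changes were 0.47 and 0.45. The list then had 11 rises and 15 falls, where 3723 and 3811 of 12017 genes were called. Scaling by total UMIs alone moved the median of all genes from −0.025 to −0.151 and the higher share of all called genes from 48.7% to 36.6%, and 17 of the 38 genes were then called lower.

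The proliferating class was not uniform. It held 3 clusters: cluster 0 with 6215 cells and few dividing cells (Mki67, a marker of division, at 9.36 to 17.8 CPM), cluster 22 with 1362 dividing cells (360 to 717 CPM) and cluster 14 with 2321 dividing cells (661 to 1005 CPM). Fgfr3, a marker of growth plate columns, was at 510 to 725 CPM in cluster 0, 556 to 801 CPM in cluster 22 and 134 to 156 CPM in cluster 14. Pgk1, Car12 and Bnip3 were high in clusters 0 and 22, as Fgfr3 was, and low in cluster 14. Pgk1 was at 1379 to 1583, 1376 to 1769 and 480 to 605 CPM in clusters 0, 22 and 14. Car12 was at 252 to 359, 302 to 480 and 7.3 to 16.9 CPM, and Bnip3 at 817 to 1084, 909 to 1090 and 275 to 353 CPM. Not all of the list did so: over all pups, Hk2 was at 87.5, 80.9 and 78.9 CPM, Hk1 at 38, 37.8 and 39.6 CPM and Eno2 at 3.31, 1.94 and 13.6 CPM in the same order. The 38 genes made up 1.07%, 1.08% and 0.454% of the UMIs, so the dividing cells of cluster 14 were at the level of resting cells. These values come from groups drawn on the same cells and carry no test. At a coarser clustering, and with the 38 genes kept among the clustering features, cluster 0 took no name and cluster 14 went to other classes. The proliferating class was then close to cluster 22 (1223 and 1236 cells), and 24 of the 38 genes rose from resting cells in each. Over all genes 5073 of 14196 and 5060 of 14436 rose.

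Among resting clusters, cluster 27 (865 cells, led by Arc, Sfrp5, Epcam, Plet1 and Krt16) stood apart with 0.877% of UMIs on the 38 genes, against 0.367 to 0.453% in the other resting clusters. Its Pgk1 level was 1240, 1110, 1142, 655 and 1329 CPM in pups 1 to 5, its Slc2a1 level 431, 482, 493, 221 and 416 CPM and its Aldoc level 58.9 to 140 CPM. Pup 4, the lowest for these genes, had 15 cells of the cluster, against 99 to 346 in the others. Aldoc thus overlapped the 82.9 to 112 CPM of proliferating cells, Pgk1 was below them in 4 pups, and Slc2a1 was above resting and proliferating cells in pups 1, 2, 3 and 5. Car12 was at 12.2 to 36.8 CPM there, near the 14.6 to 24.9 CPM of the resting class. The cluster held 7.53, 9.91, 2.49, 0.31 and 2.61% of the resting cells of pups 1 to 5, so its share also moved with the label. With the resting class taken without it, an alternative added after seeing the data, Aldoc in resting cells was at 9.14, 4.98, 3.13, 5.58 and 6.13 CPM. The Aldoc log2 fold changes from resting cells were then 3.90 to proliferating, 4.02 to hypertrophic, −0.91 to articular, −2.55 to perichondrial and −1.76 to endothelial cells, all called. Cluster 27 was picked for its share of these same genes, so leaving it out lowers their summed share in resting cells by construction. Calls made without it, here and below, are therefore no separate support. The cells of cluster 27 were deeper (median 11520 UMIs) than those of other resting clusters. Across the 16 chondrocyte clusters the log2 share of the 38 genes and the log2 median UMIs had a Pearson r of 0.826 and a Spearman rho of 0.532, given as a description since clusters share libraries. The part of depth in these levels was not tested.

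**Figure D4:**
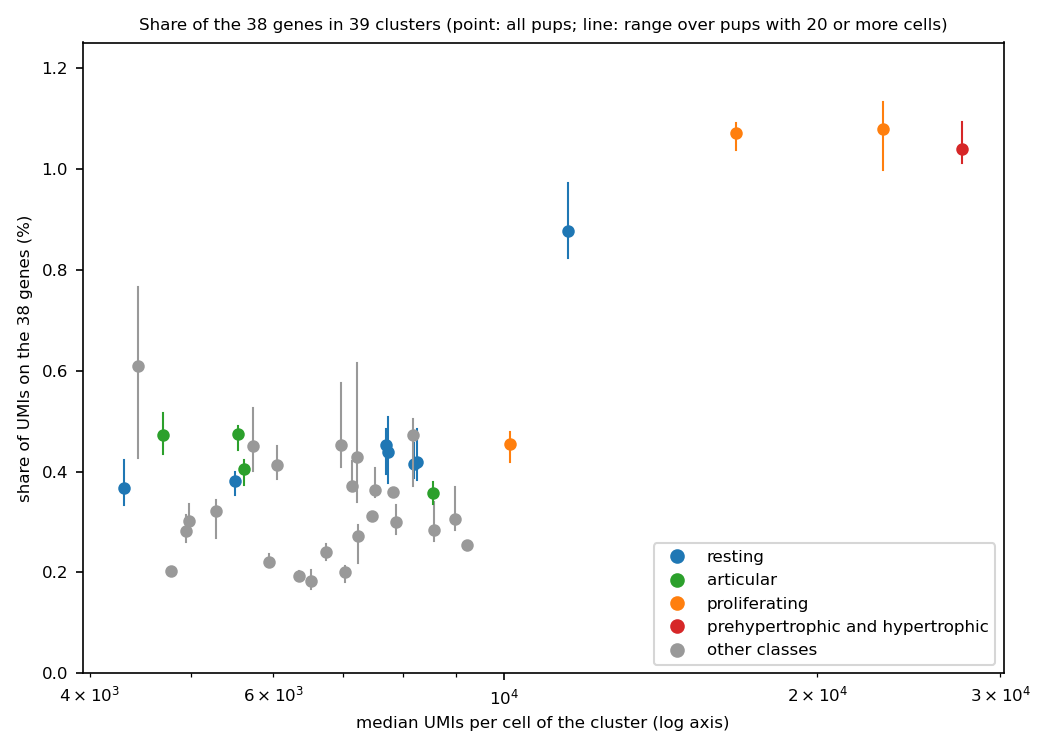
Share of UMIs on the 38 genes (%) against the median UMIs per cell (log axis) for 39 clusters, with points for all pups together and lines for the range over pups with 20 or more cells. The hypertrophic cluster, proliferating clusters 0 and 22 and resting cluster 27 lie between 0.877 and 1.08%, and proliferating cluster 14 lies at 0.454% among the resting and articular clusters.

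Across the same 16 chondrocyte clusters, levels on the log2(CPM + 5) scale were correlated pair by pair. The best partner of Gapdh was Pkm (r = 0.990), that of Tpi1 was Pgk1 (r = 0.989), that of Pgam1 was Eno1 (r = 0.988), that of Bnip3 was Ldha (r = 0.980), that of Pfkl was Eno1 (r = 0.960) and that of Aldoc was Pfkl (r = 0.955). The lowest median correlations with the other listed genes were those of Eno2 (−0.568), Ppp1r3c (−0.374), Epas1 (−0.357) and Hif1a (−0.309), and Ldhb was at −0.204. These describe 16 points from shared libraries, with no p-value.

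Within the hypertrophic class, 4 sub-clusters were ordered by Col10a1, with 719, 477, 259 and 41 cells and Col10a1 at 292, 4231, 27913 and 65990 CPM. The last also had Mmp13, the collagenase of terminal hypertrophic cells, at 4460 CPM, against at most 5.00 CPM in the others. Ibsp and Spp1, which osteoblasts make too, were at 1017 and 21353 CPM in the last against at most 84.8 and 367 CPM in the others, while Ihh and Panx3 were lower there, at 119 and 372 CPM against at least 158 and 2120 CPM. Whether cells of the osteoblast lineage were part of it was not tested. Pgk1 was at 1581 ± 99 CPM (SD, n = 5 pups) in the first, 1497 ± 60 in the second, 1052 ± 72 in the third and 257 ± 76 in the last. Ldha followed at 926, 866, 558 and 139 CPM and Slc16a3 at 179, 149, 52.9 and 9.23 CPM. Car12 was at 497, 529, 361 and 5.06 CPM, and Bnip3 at 1146, 1491, 1316 and 178 CPM. Slc2a1 went from 289 to 459 and 509 CPM and was at 275 CPM in the last, where pups ranged from 30.2 to 407 CPM. Hk2 was at 110, 128, 150 and 209 CPM, Hif1a at 311, 316, 238 and 437 CPM, Ddit4, an inhibitor of mTOR signalling, at 63, 65.5, 126 and 155 CPM and Epas1 at 2.88, 5.77, 13.5 and 49.5 CPM. Of the lower glycolytic genes, Ldhb, at 11.8 CPM in the first and 39 ± 41 CPM in the last, and Eno2, at 1.95 and 5.18 CPM from 4 UMIs in the last, were higher there by mean. Pgk1, Ldha and Slc16a3 were thus lower by mean, and Hif1a, Epas1 and Ddit4 higher, in the sub-cluster richest in Col10a1 than in the first. By mean, Pgk1, Ldha, Slc16a3, Car12 and Bnip3 were also lower there than in the resting class of any pup. The rises of these genes in the hypertrophic class were thus not seen in that sub-cluster. The last sub-cluster held 4 to 15 cells per pup, so its values are coarse, and none of these differences was tested.

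**Figure D5:**
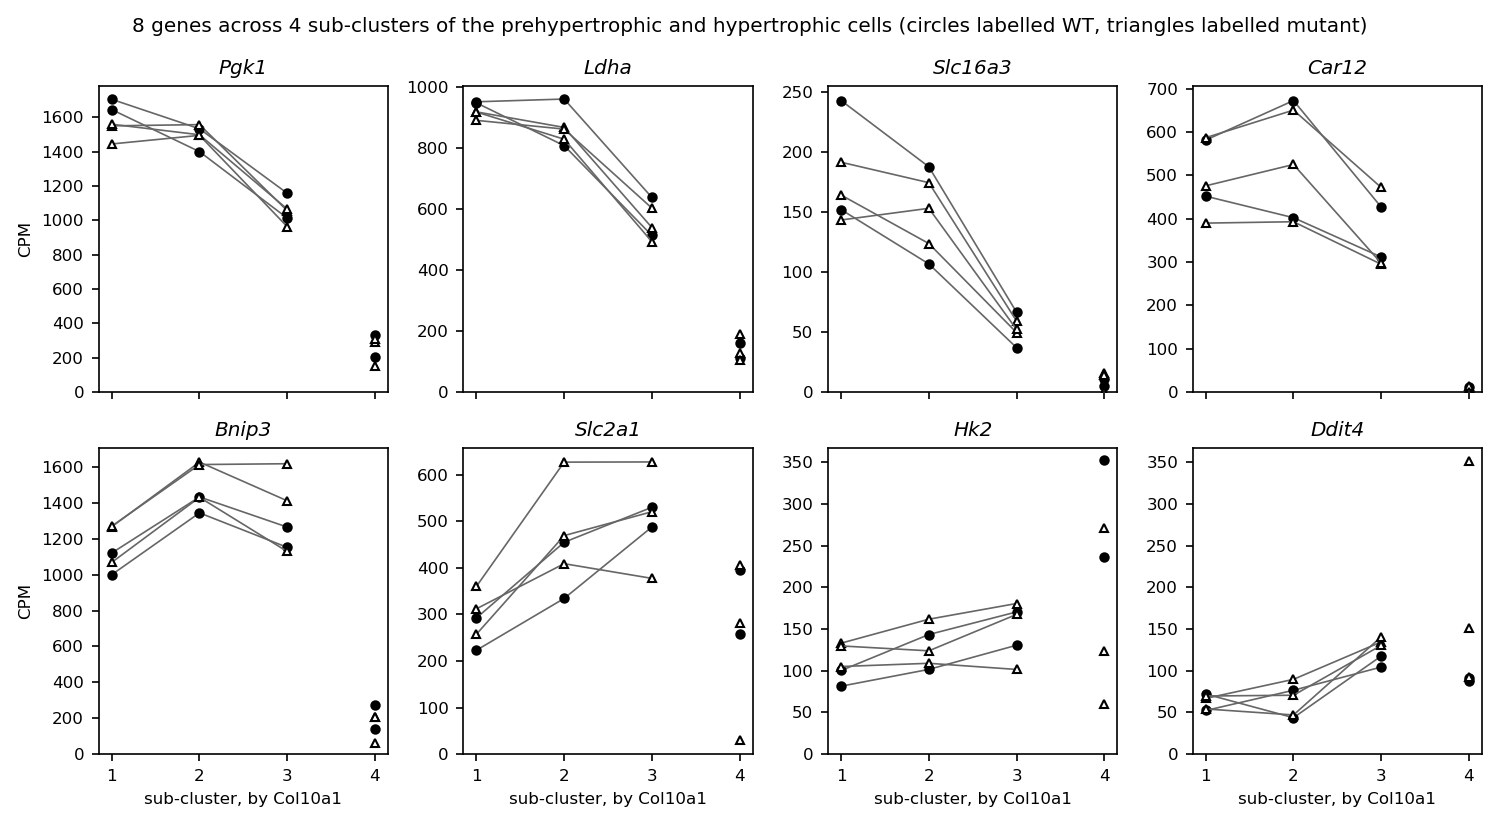
CPM of 8 of the genes in the 4 sub-clusters of the hypertrophic class ordered by Col10a1, 1 point per pup, with circles for pups labelled WT and triangles for pups labelled mutant and lines joining the first 3 sub-clusters of a pup. Pgk1, Ldha, Slc16a3, Car12 and Bnip3 are lowest in the last sub-cluster, whereas Hk2 and Ddit4 have means of 209 and 155 CPM there with a wide spread over pups.

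Articular chondrocytes differed from resting cells in fewer of the 38 genes than proliferating or hypertrophic cells did, and also in fewer of all genes. In articular cells 9 genes were higher and 15 lower, where 29.0% and 28.6% of 14888 genes were called, and the median log2 fold change was −0.147. With the 38 genes kept among the clustering features 16 were higher, where 4655 of 15175 genes were. With the resting class taken without cluster 27, 13 were higher and 13 lower, where 4275 and 4232 of 14773 genes were. The largest rises were of Egln3 (0.81 ± 0.16), Car9 (0.66 ± 0.14), Slc16a3 (0.60 ± 0.07), Pfkp (0.51 ± 0.15), Vhl (0.46 ± 0.05), Hk1 (0.42 ± 0.04), Pdk1 (0.31 ± 0.05) and Epas1 (0.29 ± 0.11). Of the falls that passed, the largest were of Aldoc (−1.81 ± 0.35), Ppp1r3c (−0.98 ± 0.04), Ldhb (−0.92 ± 0.05), Pfkm (−0.56 ± 0.05), Hk2 (−0.51 ± 0.04), Pfkl (−0.44 ± 0.05), Pfkfb3 (−0.38 ± 0.06) and Ddit4 (−0.35 ± 0.11). Of the 8 lower glycolytic genes, 6 did not pass, and 4 did not with the resting class taken without cluster 27, where Ldha (0.13) and Pkm (0.12) were called higher and Eno1 (−0.16) and Ldhb (−0.92) lower. Aldoc was at −0.91 there, behind Ppp1r3c (−1.04) and Ldhb. Of the 19 dissociation stress genes 14 were lower in articular than in resting cells and 2 higher, with a median of −0.848, and they made up 0.722 to 1.24% of articular UMIs against 1.33 to 2.18% of resting UMIs. Their part in the falls, that of the stress-responsive Ddit4 included, was not tested. The calls of Pfkp and Ddit4 were lost without any of 4 pups, and that of Epas1 without any of pups 1 to 4 (adjusted p up to 0.212). The calls of Epas1 and Ddit4 were also lost without cluster 27.

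Perichondrial cells were lower in nearly the whole list. Relative to resting cells 35 of 38 genes were lower and only Vhl was higher (0.36 ± 0.06), where 32.9% of 14315 genes were called lower and 32.2% higher, and the median was −0.781. Aldoc (−3.47 ± 0.20), Ppp1r3c (−3.28 ± 0.18), Bnip3 (−2.39 ± 0.13), Slc2a1 (−2.26 ± 0.08), Pfkl (−2.02 ± 0.08), Epas1 (−1.96 ± 0.15), Pfkfb3 (−1.54 ± 0.14) and Pgk1 (−1.53 ± 0.05) fell most. Slc2a1 was at 41.9, 31.8, 37.9, 45 and 64.7 CPM in perichondrial cells, below every resting value. Slc2a3 (−0.10 ± 0.18) and Eno2 (0.04 ± 0.09) did not pass. With the resting class taken without cluster 27, 32 genes were lower, where 4676 of 14231 genes were. Egln1 (adjusted p = 0.28), Gpi1 (0.10) and Ankrd37 (0.063) lost their calls, and Ppp1r3c (−3.34) fell more than Aldoc (−2.55). Of the dissociation stress genes 9 of 19 were higher and 3 lower in perichondrial cells, and 3 of 4 hemoglobin genes were higher.

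Endothelial cells, which are bathed in blood, had another pattern. In them 5 genes were higher and 24 lower than in resting chondrocytes, where 27.0% and 33.2% of 14044 genes were called. Epas1 was at 339, 340, 363, 432 and 282 CPM in endothelial cells, with a log2 rise of 4.59 ± 0.12 (adjusted p = 3.1e-24), and at 274, 247, 310, 278 and 371 CPM in pericytes, which overlapped. Ndrg1 was at 302 to 425 CPM in endothelial cells and at most at 167 CPM in pericytes. It was also high in 2 small classes that are not plotted, Schwann cells (170 to 577 CPM) and mast cells (107 to 636 CPM). It rose by 1.31 ± 0.11, Ddit4 by 1.62 ± 0.15, Ankrd37, a small target of HIF, by 1.11 ± 0.30 and Pfkp, the platelet-type phosphofructokinase, by 0.52 ± 0.15. Ldhb (−3.33 ± 0.28), Hk2 (−3.31 ± 0.17), Eno2 (−3.02 ± 0.29), Ppp1r3c (−3.00 ± 0.18), Aldoc (−2.80 ± 0.68), Car9 (−2.69 ± 0.27), Bnip3 (−2.44 ± 0.23) and Slc2a1 (−2.12 ± 0.13) fell most. Of the dissociation stress genes 9 of 19 were higher and 6 lower in endothelial cells (median 0.317), and all 4 hemoglobin genes were higher (median 4.23), at 0.00241 to 0.221% of endothelial UMIs. The part of handling stress in the rise of Ddit4 and that of red cell RNA in these values was not tested. Without cluster 27 in the resting class, Aldoc was at −1.76. Hk2 was at 10.3 to 24.3 CPM in endothelial cells. The share of higher genes among all called ones moved from 44.8% to 63.7% when libraries were scaled by total UMIs alone, and 9 of the 38 genes were then higher. At a mitochondrial limit of 5% 3 were higher, where 1354 of 12977 genes in all were called higher. Without pup 3 the call of Ankrd37 was lost (adjusted p = 0.059).

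Other genes of the same pathways were counted from lists that were likewise made with earlier results known. From resting to hypertrophic cells, 9 of 18 tested genes of a further glycolysis list rose and 4 fell, where 35.4% of all genes were called higher and 36.7% lower. Tigar, which lowers the activator of phosphofructokinase, rose by 2.60 ± 0.30 and the glucose transporter Slc2a12 by 1.68 ± 0.18, whereas muscle enolase Eno3 (−1.25 ± 0.20) and Ldhd (−1.10 ± 0.34) fell. Of 35 further hypoxia-responsive genes, 23 rose and 10 fell, with a median of 0.801. Pygl, which releases glucose from glycogen, rose by 2.85 ± 0.12 and the vasodilator peptide Adm by 2.58 ± 0.33, from 0.42 to 1.34 CPM in resting to 2.62 to 8.06 CPM in hypertrophic cells. Stc1 (−3.43 ± 0.43) and the transferrin receptor Tfrc (−2.63 ± 0.08) fell. Of 21 genes of pyruvate dehydrogenase and the tricarboxylic acid cycle, which burn pyruvate with oxygen, 18 rose and 0 fell by edgeR, with 18 at an unadjusted p under 0.05 and a median of 0.668, led by Mdh2 (1.07 ± 0.06) and Cs (1.00 ± 0.07). Of 19 dissociation stress genes 4 rose, led by Dusp1 (1.48 ± 0.05) and Ier2 (0.94 ± 0.12), and 8 fell, led by Nr4a1 (−2.31 ± 0.20) and Hspa1b (−1.43 ± 0.19). Of 15 cartilage matrix genes 8 rose, led by Hapln1 (2.10 ± 0.06) and Snorc (1.71 ± 0.05), and 3 fell, among them Col2a1 (−0.67 ± 0.04) and Col9a1 (−0.17 ± 0.04). Col2a1 and Matn1 of this list helped name resting cells, and Hapln1 and Matn3 proliferating cells. Differences in such genes partly follow from how the classes were drawn. None of 4 hemoglobin genes passed by edgeR (0 at an unadjusted p under 0.05).

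The study asked how cells with the Trpv4 change differ from wild-type cells, and here 2 pups were set against 3. In all cells, in each of 5 classes and in the contrast of labels between hypertrophic and resting cells, edgeR called 0 of the genes, and 0% of all genes tested, at an adjusted p under 0.05. At an unadjusted p under 0.05 there were 5 of 38 genes in all cells, 8 in resting, 6 in articular, 7 in proliferating and 3 in hypertrophic cells, 4 of 37 in perichondrial cells, where Aldoc was not tested, and 7 in the contrast between classes. Over all genes these were 1169 of 21024, 1130 of 16044, 910 of 14390, 887 of 16255, 366 of 12469, 851 of 12573 and 516 of 16257 in the same order. DESeq2 called 1 in all cells (Hk2), 1 in resting cells (Slc16a1), 1 in the contrast (Aldoc) and 0 in the other 4 comparisons. Over all genes DESeq2 called 20 higher and 28 lower in all cells, 24 and 29 in resting cells and 4 and 0 in the contrast. Erythroid cells made up 1.71 and 1.10% of the cells of pups 1 and 2 and 0.627, 0.274 and 0.326% of those of pups 3 to 5. The 4 hemoglobin genes moved the same way, with median log2 fold changes of −1.23 to −4.20 over the 7 comparisons of labels and 2 to 4 of them at an unadjusted p under 0.05 in each, though edgeR called 0 at an adjusted p. They summed to 0.00301 and 0.00556% of the UMIs of resting cells under the WT label against 0.000984 to 0.00159% under the mutant label, and the part of red cell RNA in the values of the labels was not tested.

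Values per pup are given for the gene of the list with the smallest p in all cells and in each class. Hk2 in all cells was at 78.2 and 86.2 CPM under the WT label and at 99.6, 97.8 and 99.7 CPM under the mutant label, without overlap (log2 fold change 0.37 ± 0.08, adjusted p = 0.84). Sums over all cells cannot tell fewer cells of a class from less RNA per cell, and proliferating cells made up 12.7, 13.4, 8.69, 11.4 and 14.9% of the cells of pups 1 to 5. Slc16a1 was at 124 and 133 CPM against 167, 161 and 155 CPM in resting cells (0.41 ± 0.09, adjusted p = 0.50). In articular cells Pfkp had the smallest p (0.32 ± 0.10, adjusted p = 0.77), at 32.8 and 37.6 against 42.3, 42.5 and 40.6 CPM. Ldhb did in proliferating cells (−0.48 ± 0.11, adjusted p = 0.83), at 21.8 and 26.8 against 18.2, 15.5 and 17.2 CPM. Pfkfb3 did in hypertrophic cells (0.28 ± 0.11, adjusted p = 1.0), at 111 and 120 against 139, 128 and 147 CPM. In perichondrial cells it was Ndrg1 (0.48 ± 0.12, adjusted p = 0.72), at 62.9 and 56.9 against 74, 79.9 and 86.4 CPM. None of these differences passed by edgeR, while DESeq2 called those of Hk2 and Slc16a1. The labelled groups did not overlap for any of these genes, but each was picked for its small p, so this is no separate support.

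Aldoc differed most between classes. In resting cells it was at 14.7 and 16.3 CPM under the WT label, above the 6.83, 5.81 and 10.9 CPM under the mutant label. In hypertrophic cells it was at 71.8 and 91.5 against 82.2, 105 and 120 CPM. The labels were thus separated in resting cells and overlapped in hypertrophic cells, and the difference of the label effects was 1.28 ± 0.20 on the log2 scale (edgeR adjusted p = 0.36), while DESeq2 gave an adjusted p of 0.0042. Without pup 5, Aldoc was called lower in resting cells by edgeR, in a fit that called 2 higher and 9 lower of 15819 genes. Cluster 27, whose share of resting cells differed with the label, was picked by its share of the listed genes, Aldoc included. Leaving it out is therefore no separate check. Without it, the resting values overlapped, at 9.14 and 4.98 against 3.13, 5.58 and 6.13 CPM. The difference of the label effects was then 0.79 ± 0.38 (edgeR adjusted p = 1.0).

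Counting the genes whose 3 pups labelled mutant all lay above, or all below, both pups labelled WT gave 8 above and 10 below in all cells, where 3.84% and 19.8% of all tested genes did so. In resting cells it gave 3 and 10 (5.67% and 19.4%), in articular cells 7 and 4 (5.26% and 15.6%) and in proliferating cells 8 and 9 (8.26% and 14.6%). In resting cells without cluster 27, counted so after seeing the data, 5 were above (Ankrd37, Hk1, Hk2, Slc16a1 and Slc2a1) and 2 below (Pdk1 and Pkm), where 5.40% and 17.4% of all tested genes were. In hypertrophic cells it gave 5 and 3 (7.10% and 11.2%), and in perichondrial cells 3 and 5 of 37 (6.98% and 19.2%). With every cluster kept, Slc16a1 was above and Pkm and Tpi1 were below in all 6 of these. The 6 share the same pups, and all cells include the other classes. How many of all tested genes did so in all 6 was not counted, so these 3 genes cannot be set apart from the rest. Pkm, the last ATP-yielding step, was at 183 and 173 CPM against 138, 124 and 120 CPM in resting cells, and Tpi1 at 299 and 264 against 238, 223 and 198 CPM. Without cluster 27, Pkm in resting cells still did not overlap, at 163 and 142 against 130, 123 and 112 CPM, while Tpi1 did, at 271 and 222 against 227, 222 and 184 CPM. Pgk1 and Pdk3 lie on the X chromosome, and Pgk1 was at 665 and 650 CPM against 515, 577 and 602 CPM in all cells. The part of sex in the values of the labels was not tested. Depth moved with the label in the same direction as these lower values, and its part in them was not tested.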

How the data were processed

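Single cells of 5 libraries were profiled on the BD Rhapsody platform, and the authors deposited 1 table of UMI counts per gene and cell for each pup, made with a cloud-run commercial pipeline (version not given in the sources used here) on mm10. Counts were used as deposited. Cells under 200 or over 6000 genes or above 10% mitochondrial UMIs were left out, after the study's methods. Clusters were drawn with scanpy 1.11.5 and leidenalg 0.10.2 (3000 features without the 38 genes, 50 components, resolution 1.5) and named from marker lists. No cluster was named hypertrophic, and joining it with prehypertrophic cells, the sub-clusters and the single-cluster values were chosen after seeing the data. Doublets were called with a Scrublet-type score (2.18 to 2.87% of cells per library) and kept in the main values.

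Counts were summed per pup and class (20 or more cells) and tested with edgeR 4.0.16 (R 4.3.3, limma 3.58.1), with TMM scaling, filterByExpr, a robust quasi-likelihood fit and Benjamini-Hochberg adjustment over all genes tested. Classes of the same pups were compared with the pup as a block, labels without one. "Higher", "rose", "lower" and "fell" mean an adjusted p under 0.05. Folds are given for the 8 largest rises and falls per pair of classes, for the gene with the smallest p per comparison of labels, and elsewhere where a role is described. The genes and lists were chosen with earlier results of these data known. Alternatives were DESeq2 1.42.0, total-UMI scaling, no filter, 2 other clusterings, called doublets removed, a mitochondrial limit of 5%, each pup left out, the 3 libraries with Ddx3y alone, no pup block and, added after seeing the data, the resting class without cluster 27, its cluster with the highest share of UMIs on the 38 genes. The scripts were tested on simulated counts.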

Additional observations from a re-analysis of the deposited data

How the results depend on the processing

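Repeats under the alternatives were counted only for the genes with the largest rises and falls that passed in each comparison of classes. Of these repeats, 1154 kept direction and call, 30 kept direction and lost the call, and 4 reversed. Other genes given a fold between classes, such as Slc16a1 to proliferating cells, were not counted. The reversals were of Ppp1r3c and Eno2 from proliferating to hypertrophic cells. They were at 0.47 and 0.45 (log2) at clustering resolution 0.8. With the 38 genes kept among the features they were at 0.43 and 0.33, where the proliferating class was mostly 1 cluster. Counts of the 38 genes moved under several alternatives, and not all of these changes are listed here. From proliferating to hypertrophic cells, more of the list rose than fell in the main fit. At clustering resolution 0.8 more fell than rose. In articular cells more of the list was lower than higher in the main fit. With the resting cluster richest in these genes left out, as many were higher as lower. With total-UMI scaling 17 were lower from proliferating to hypertrophic cells and 9 higher in endothelial than resting cells. With a mitochondrial limit of 5% 3 were higher in endothelial cells, and with the genes kept among the features 16 were higher in articular cells. DESeq2 called 1 gene higher in the labels over all cells, 1 in resting cells and 1 in the contrast of labels between classes. In that contrast the fit without a filter on low counts also called 1, and it called 64 higher and 19 lower of 27446 genes in all. The cause of these changes was not tested. Leaving out each pup labelled mutant in turn gave 0 to 1 gene lower by label in resting cells. Aldoc was the gene called without pup 5, in a fit that called 2 higher and 9 lower of 15819 genes.

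Classes of a pup share that pup, which pairs them. Without the pup block, counts stayed within 1.5 times of those with it, at 23 higher and 8 lower from resting to proliferating and 22 and 7 to hypertrophic cells, while articular cells had 7 and 10, perichondrial cells 1 and 33, endothelial cells 5 and 24, and hypertrophic against proliferating cells 11 and 8. Over all genes these fits called 5253 higher and 4878 lower of 15850 to proliferating and 5047 and 5226 of 14710 to hypertrophic cells. They called 2935 and 3011 of 14888 in articular, 4134 and 4209 of 14315 in perichondrial and 3908 and 4758 of 14044 in endothelial cells. For hypertrophic against proliferating cells they called 3841 and 4035 of 14620. Among the genes with the largest rises and falls, Ndrg1 lost its call in hypertrophic cells (adjusted p = 0.12). So did Slc16a3 (0.085) and Epas1 (0.13) in articular cells. No paired analysis was possible between the labels because numbers there only name pups. Depth limits the smallest groups, as 38 endothelial cells in pup 5.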
